A study of Homo sapiens with 4 samples.

Results

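The genes described here are APOA1, APOA2, APOB, APOC1, APOC2, APOC3, APOE, APOH, APOM and MTTP, which encode the main apolipoproteins made by liver cells and the protein that loads lipid onto APOB. They were listed by name, and all 10 were found by symbol among the 32479 genes of the deposited table. The study sequenced total RNA of 2 human liver cancer cell lines. HepG2 is a hepatoblastoma-derived line, and PLC/PRF/5 is a line from a hepatocellular carcinoma with hepatitis B virus DNA in its genome. There were 4 groups with 1 library each: HepG2 with 20 uM PF-429242 for 24 h, untreated HepG2 at 24 h, PLC/PRF/5 with 20 uM PF-429242 for 24 h, and untreated PLC/PRF/5 at 24 h. The labels give the genotype of both lines as WT and name no transgene. The compound PF-429242 blocks site-1 protease, the Golgi enzyme that makes the first cut in freeing SREBP, ATF6 and related factors from their membrane anchors. Because every group held 1 library, no difference between 2 libraries had a replicate check, and none is given a p-value.

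Liver cells package triglyceride and cholesteryl ester into very low density lipoprotein. APOB is the structural protein of that particle, and MTTP, the large subunit of the microsomal triglyceride transfer protein, transfers lipid to APOB as it enters the endoplasmic reticulum. APOA1 and APOA2 are the main proteins of high density lipoprotein, while the smaller apolipoproteins move between particles and steer lipases and receptors. Nuclear receptors and liver transcription factors such as HNF4A are known regulators of many of these genes.

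The libraries held 20350701 fragments (HepG2 with PF-429242), 16722204 (HepG2 control), 16982560 (PLC/PRF/5 with PF-429242) and 21387301 (PLC/PRF/5 control), recovered from the FPKM values (fragments scaled to gene length and to library size). Mitochondrial genes took 27.6% and 16.6% of the fragments in treated and control HepG2, and 28.2% and 21.3% in treated and control PLC/PRF/5 (95% exact binomial intervals 27.58 to 27.62, 16.61 to 16.65, 28.17 to 28.21 and 21.30 to 21.34). The median log2 ratio over all tested genes was -0.17 in HepG2 and -0.13 in PLC/PRF/5, PF-429242 over control. The part of the mitochondrial share in the members' values was not tested. All 11 liver cell markers, among them ALB, AFP, TTR and HNF4A, were at 1 FPKM or more in all 4 libraries. Of the macrophage and blood list, CD14, CD68 and CSF1R were below 1 FPKM in all 4 libraries, while LYZ was at 179 to 504 FPKM.

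Promoter windows of RefSeq, from 250 bases before to 50 after a transcript start on GRCh38.p14, were matched for 7 of the 10 members, in 10 windows. APOA1, APOB and APOC3 had no window, so their promoters were not searched. A total of 4 windows are printed because of the members' values below. APOC1 and MTTP were the members whose ratio of PF-429242 over control had a counting interval below 1 in both lines. APOC2, a neighbour of APOC1 with few fragments, had intervals that held 1 in both lines, and APOH was higher in treated PLC/PRF/5. Capitals mark matches to the TATA motif TATAAA on either strand, and a window all in lower case held no match to any motif searched.
APOC1, chr19:44914422-44914721, plus strand: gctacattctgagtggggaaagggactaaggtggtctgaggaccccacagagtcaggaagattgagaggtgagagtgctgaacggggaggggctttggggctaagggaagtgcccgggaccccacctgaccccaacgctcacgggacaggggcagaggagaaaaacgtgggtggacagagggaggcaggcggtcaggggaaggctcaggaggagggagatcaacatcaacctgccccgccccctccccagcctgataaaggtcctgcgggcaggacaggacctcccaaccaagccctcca
APOC2, chr19:44945801-44946100, plus strand: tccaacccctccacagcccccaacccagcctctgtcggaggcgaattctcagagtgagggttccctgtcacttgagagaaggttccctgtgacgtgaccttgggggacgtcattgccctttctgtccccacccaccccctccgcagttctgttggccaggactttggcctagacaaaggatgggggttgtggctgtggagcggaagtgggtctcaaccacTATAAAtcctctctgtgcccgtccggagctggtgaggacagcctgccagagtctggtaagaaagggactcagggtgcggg
MTTP, downstream start, chr4:99574574-99574873, plus strand: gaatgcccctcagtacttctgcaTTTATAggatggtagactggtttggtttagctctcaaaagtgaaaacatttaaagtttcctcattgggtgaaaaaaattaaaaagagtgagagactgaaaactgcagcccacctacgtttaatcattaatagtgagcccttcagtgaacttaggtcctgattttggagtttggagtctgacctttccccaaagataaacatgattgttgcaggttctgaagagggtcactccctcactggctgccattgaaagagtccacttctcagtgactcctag
APOH, chr17:66229366-66229665, minus strand: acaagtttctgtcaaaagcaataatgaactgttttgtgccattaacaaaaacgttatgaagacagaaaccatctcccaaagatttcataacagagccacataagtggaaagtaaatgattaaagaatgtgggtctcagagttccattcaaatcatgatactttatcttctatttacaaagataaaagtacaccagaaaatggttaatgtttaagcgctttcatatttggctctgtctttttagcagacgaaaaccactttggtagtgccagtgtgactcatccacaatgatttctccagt

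TATAAA was found in 2 of the 10 member windows, against 11.5% of all 35116 windows. In APOC2 it ended 24 bases before the start, and in MTTP it lay on the opposite strand, ending 221 bases before the downstream start. The other motifs had no match in any member window: the HNF4 forms CAAAGTCCA and CAAAGGTCA (0.384% and 0.407% of all windows), the HNF1 form GTTAATNAT (0.792%), the sterol response element TCACNCCAC (1.13%), the E-box CACGTG (7.26%), the cyclic AMP response element TGACGTCA (1.85%) and the C/EBP form TTGCNNAA (10.5%). These are counts of letters in a short window and say nothing of binding. The windows differed in base composition, with 62.3% G and C in APOC1, 59.7% in APOC2, 42% at the downstream start of MTTP and 35% in APOH, beside a median of 58.7% over all windows.

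The members' levels differed widely, and APOB stood first and APOC2 last in each library. APOB (ENSG00000084674, chromosome 2, 21001429 to 21044073, minus strand; GENCODE 29 on GRCh38, as for all positions given by chromosome) was at 1712 FPKM in treated and 1949 FPKM in control HepG2. The PLC/PRF/5 libraries had 829 FPKM in treated and 791 FPKM in control cells. It took 2.54% of all fragments in treated HepG2 (95% exact binomial interval 2.531 to 2.545), 2.89% in control HepG2 (2.882 to 2.898), 1.23% in treated PLC/PRF/5 (1.225 to 1.235) and 1.17% in control PLC/PRF/5 (1.168 to 1.177). The 10 members together took 2.80%, 3.19%, 1.36% and 1.29% in the same order (intervals 2.793 to 2.807, 3.18 to 3.197, 1.355 to 1.366 and 1.285 to 1.295), so APOB alone supplied most of their fragments. These intervals cover counting error only. Among protein-coding genes APOB ranked 17 by FPKM in 3 libraries and 19 in the PLC/PRF/5 control.

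**Figure D1:**
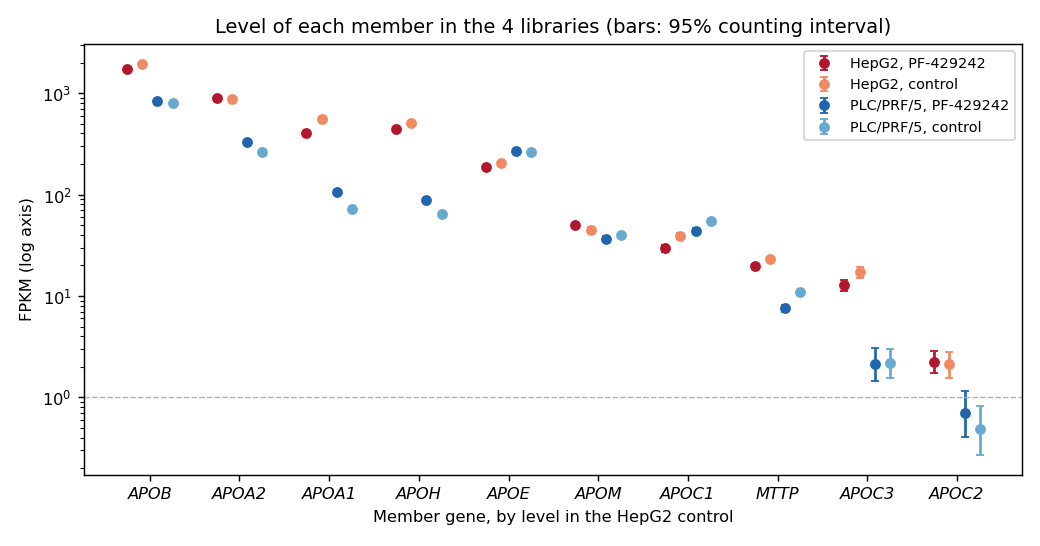
FPKM (log axis) of the 10 members in treated HepG2, control HepG2, treated PLC/PRF/5 and control PLC/PRF/5, with 95% Poisson counting intervals as bars. APOB is highest and APOC2 lowest in each library; the red HepG2 points lie well above the blue PLC/PRF/5 points for APOA1, APOH and APOC3, and below them for APOE and APOC1.

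Per unit length, the order of the members in treated HepG2 was APOB, APOA2, APOH, APOA1, APOE, APOM, APOC1, MTTP, APOC3 and APOC2. In control HepG2 it was the same except that APOA1 stood above APOH. APOE stood above APOA1 and APOH in both PLC/PRF/5 libraries. In control PLC/PRF/5, APOE at 264 FPKM and APOA2 at 259.9 FPKM had overlapping counting intervals (259.3 to 268.8 and 252.9 to 267.0). They were the only neighbours in any library's order with overlapping intervals. The gene lengths behind the FPKM values were those of GENCODE 29 for 6 members. For APOC2, APOC3, APOE and APOM lengths of 1328, 851, 2154 and 1237 bases made the fragments whole, in place of 1316, 866, 2191 and 1660, so the standing of APOM depends most on the length used.

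The first question was what site-1 protease inhibition did to these transcripts in HepG2. No member differed by 2-fold or more between treated and control HepG2, where 3.14% of 12347 tested genes did. The members' median log2 ratio of (FPKM + 1) was -0.18, close to the -0.17 of all tested genes, with 7 members below 0 and 3 above, where 82.4% of all tested genes were below 0. APOA1 was the lowest of the 10. The counting interval of the ratio lay wholly below 1 for 7 members, that of APOM lay above 1, and the intervals of APOA2 and APOC2 held 1. The share of all genes with such an interval is not given here. Of those 7, APOB, APOE, APOH and MTTP lay close to the all-gene median log2 ratio, at -0.014, 0.029, -0.0088 and -0.044 from it. As these are bulk libraries, fewer cells of a type and less RNA per cell cannot be told apart.

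In PLC/PRF/5 also no member reached 2-fold, where 3.29% of 13144 tested genes did. APOC2 stayed below 1 FPKM in both PLC/PRF/5 libraries and was not tested there. The 9 tested members had a median log2 ratio of 0.02, against -0.13 over all tested genes, with 5 above 0 and 4 below, where 70.9% of all tested genes were below 0. APOA1, APOH and APOA2 had the largest ratios among them, and MTTP and APOC1 the smallest. Over all 10 members, the counting interval lay above 1 for 4 (APOA1, APOA2, APOB and APOH) and below 1 for APOC1 and MTTP. Here too the share of all genes with such intervals is not given.

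**Figure D2:**
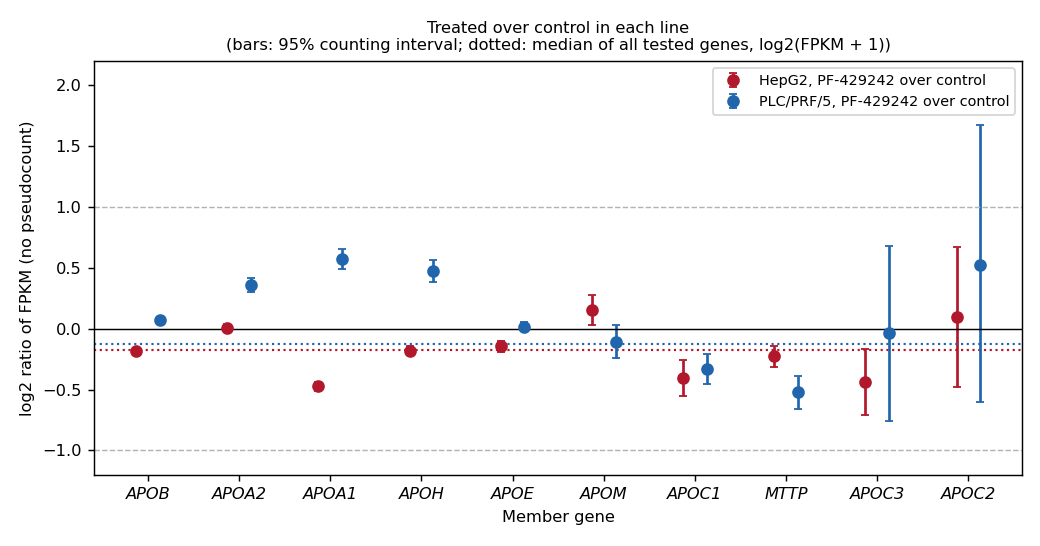
Log2 ratio of FPKM, PF-429242 over control, for each member in HepG2 (red) and PLC/PRF/5 (blue), with 95% counting intervals as bars and the medians of all tested genes as dotted lines. APOA1 and APOH lie below 0 in HepG2 and above 0 in PLC/PRF/5, APOC1 and MTTP lie below 0 in both, and no point lies beyond the dashed 2-fold lines.

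Among the proteins of high density lipoprotein, APOA1 differed most between the lines. APOA1 (ENSG00000118137, chromosome 11, 116835751 to 116837950, minus strand), the main protein of that particle and the activator of the cholesterol-esterifying enzyme LCAT, was at 402 FPKM in treated and 557 FPKM in control HepG2, a ratio of 0.720 (95% counting interval 0.703 to 0.739). PLC/PRF/5 had 106 FPKM in treated and 71.6 FPKM in control cells, a ratio of 1.49 (1.402 to 1.573). The treated library was thus the lower one in HepG2 and the higher one in PLC/PRF/5. This opposite direction was present under each of the 5 scalings tried (FPKM as deposited, TPM, median-of-ratios, quantile normalization and division by the FPKM sum of nuclear genes), with log2 ratios of -0.81 to -0.26 in HepG2 and 0.23 to 0.78 in PLC/PRF/5. The HepG2 ratio over the PLC/PRF/5 ratio was 0.485 (0.456 to 0.516). Of the 12838 genes at 1 FPKM or more in at least 2 libraries, 2.54% had a log2 difference between the lines at least as large.

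APOA2 (ENSG00000158874, chromosome 1, 161222292 to 161223631, minus strand), the second protein of high density lipoprotein, was at 885 FPKM in treated and 884 FPKM in control HepG2, a ratio of 1.00 (0.980 to 1.02). Its PLC/PRF/5 levels were 333 FPKM in treated and 259.9 FPKM in control cells, a ratio of 1.28 (1.233 to 1.33). The HepG2 libraries did not differ beyond counting error, while the treated PLC/PRF/5 library was higher under each scaling. Within a library, where scaling plays no part, the FPKM of APOA1 per FPKM of APOA2 was 0.454 in treated and 0.631 in control HepG2, and 0.319 in treated and 0.275 in control PLC/PRF/5. APOM (ENSG00000204444, chromosome 6, 31652416 to 31658210, plus strand), a lipocalin that carries sphingosine phosphate on these particles, was at 49.9 FPKM in treated and 44.9 FPKM in control HepG2 (ratio 1.11, 1.02 to 1.21). Its PLC/PRF/5 levels were 36.7 FPKM in treated and 39.5 FPKM in control cells, with an interval that held 1 (ratio 0.929, 0.846 to 1.02). APOM varied least over the 4 libraries, 1.36-fold between the lowest and the highest. One end of APOM overlaps BAG6 on the opposite strand, which was at 50.5, 49.9, 46.6 and 46.6 FPKM in treated HepG2, control HepG2, treated PLC/PRF/5 and control PLC/PRF/5. The labels do not say whether fragments were counted by strand, so reads of the overlap cannot be assigned to APOM or BAG6.

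The assembly pair differed in PLC/PRF/5, where MTTP was lower in the treated library and APOB was not. APOB had a ratio of 0.878 in HepG2 (0.875 to 0.882) and of 1.05 in PLC/PRF/5 (1.043 to 1.055), small differences that its very high fragment number resolves. They turned sign with the scaling: the log2 ratio lay between -0.52 and 0.03 in HepG2 and between -0.27 and 0.49 in PLC/PRF/5. MTTP (ENSG00000138823, chromosome 4, 99563761 to 99623999, plus strand) was at 19.7 FPKM in treated and 23.1 FPKM in control HepG2, a ratio of 0.854 (0.804 to 0.908). In the other line MTTP was at 7.57 FPKM in treated and 10.9 FPKM in control cells, a ratio of 0.697 (0.634 to 0.765). MTTP was lower in the treated library of both lines under each scaling, although in HepG2 its log2 ratio came as close to 0 as -0.012 under median-of-ratios scaling. There were 86.8 FPKM of APOB for each FPKM of MTTP in treated and 84.4 in control HepG2, and 110 in treated and 72.8 in control PLC/PRF/5.

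Of the exchangeable apolipoproteins, APOC1 was lower in both treated libraries. APOC3 and APOE were lower beyond counting error in treated HepG2, and no difference was detected for them in PLC/PRF/5. APOC2 did not differ beyond counting error in either line. The direction of APOE in HepG2 turned with the scaling. APOC1 (ENSG00000130208, chromosome 19, 44914247 to 44919349, plus strand), which hinders lipase action and receptor uptake of particles, was at 29.5 FPKM in treated and 39.0 FPKM in control HepG2, a ratio of 0.755 (0.682 to 0.836). Its levels in PLC/PRF/5 were 43.7 FPKM in treated and 55.0 FPKM in control cells, a ratio of 0.795 (0.731 to 0.865). With MTTP, APOC1 was lower in the treated library of both lines under each scaling, and its HepG2 ratio over its PLC/PRF/5 ratio was 0.949 (0.834 to 1.08). APOC2 (ENSG00000234906, chromosome 19, 44945982 to 44949565, plus strand), the cofactor of lipoprotein lipase, was at 2.26 FPKM (61 fragments) in treated and 2.12 FPKM (47 fragments) in control HepG2. Treated PLC/PRF/5 had 0.709 FPKM (16 fragments) and control PLC/PRF/5 0.493 FPKM (14 fragments). A difference was not detectable at this depth in either line, with ratios of 1.07 (0.717 to 1.59) and 1.44 (0.658 to 3.18).

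APOC3 (ENSG00000110245, chromosome 11, 116829706 to 116833072, plus strand), an inhibitor of lipoprotein lipase, was at 12.7 FPKM in treated and 17.2 FPKM in control HepG2, a ratio of 0.738 (0.612 to 0.889). With 31 fragments in treated and 40 in control PLC/PRF/5, or 2.145 and 2.198 FPKM, no difference was detectable there (ratio 0.976, 0.590 to 1.60). That interval also held the HepG2 ratio of 0.738. APOE (ENSG00000130203, chromosome 19, 44905754 to 44909393, plus strand), the ligand by which remnant particles are taken up into liver cells, was at 185 FPKM in treated and 204 FPKM in control HepG2 (ratio 0.904, 0.876 to 0.933). It stood at 267 FPKM in treated and 264 FPKM in control PLC/PRF/5 (ratio 1.01, 0.985 to 1.04). APOH (ENSG00000091583, chromosome 17, 66212033 to 66256525, minus strand), a phospholipid-binding plasma glycoprotein, was at 443 FPKM in treated and 503 FPKM in control HepG2 (ratio 0.881, 0.859 to 0.904). PLC/PRF/5 had 88.9 FPKM in treated and 64.1 FPKM in control cells (ratio 1.39, 1.302 to 1.479). APOH thus resembled APOA1 in being higher in treated PLC/PRF/5 under each scaling, while its sign in HepG2 depended on the scaling (log2 ratios of -0.52 to 0.06).

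**Figure D3:**
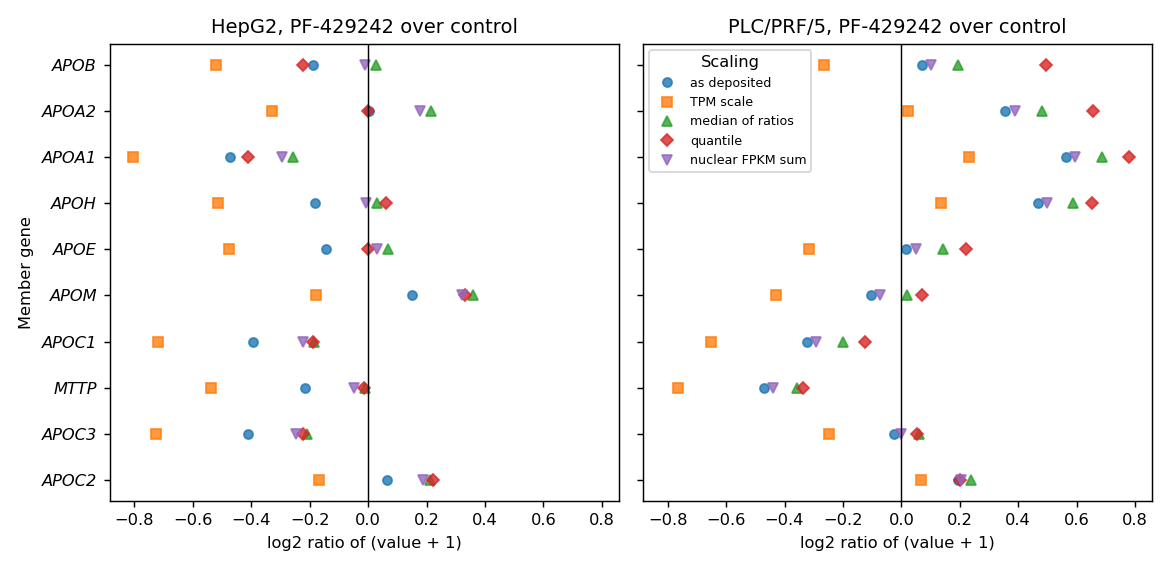
Log2 ratio of (value + 1), PF-429242 over control, for each member under 5 scalings, with HepG2 on the left and PLC/PRF/5 on the right. In HepG2 4 members (APOA1, APOC1, APOC3 and MTTP) and in PLC/PRF/5 6 members (APOA1, APOA2, APOC1, APOC2, APOH and MTTP) keep one sign under all 5.

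A shared effect of treatment in both lines was tested with limma on log2(FPKM + 1), the cell line as a block, which leaves 1 residual degree of freedom. The spread of each gene comes from the difference in response between the lines, drawn by limma toward a trend over all fitted genes. The test called 0 of the 10 members and 0 of 12838 genes at an adjusted p under 0.05, a background of 0%. At an unadjusted p under 0.05 there were 2 of the 10 members, APOC1 and MTTP, and 2488 of the 12838 genes. The share among the members was thus close to that among all genes. APOC1 had a log2 change of -0.36 ± 0.07 (SE, limma adjusted p = 0.193) and MTTP one of -0.34 ± 0.10 (SE, limma adjusted p = 0.210). In both lines they were lower, but neither passed the adjustment. The other 8 members had changes between -0.22 (APOC3) and 0.18 (APOA2), with limma adjusted p between 0.399 and 0.9297. The limma-voom fit on recovered fragments also called 0 genes, with 3100 at an unadjusted p under 0.05.

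The response of the lines differed beyond counting error for 7 of the 10 members, a difference with no replicate check. For 5 of these (APOA1, APOA2, APOB, APOE and APOH) the HepG2 ratio was the smaller one, and for APOM and MTTP it was the larger one. This count depends on fragment number, and the share of all genes differing in this way is not given. The HepG2 ratio over the PLC/PRF/5 ratio was 0.837 (0.831 to 0.843) for APOB. For APOC3, with far fewer fragments, it was 0.756, with an interval that held 1 (0.457 to 1.25). After APOA1, the largest difference was that of APOH, with a HepG2 ratio over the PLC/PRF/5 ratio of 0.635 (0.593 to 0.680). A log2 difference at least as large was held by 7.56% of the 12838 genes for APOH, by 21.4% for APOA2, 32.8% for APOB, 33.4% for MTTP, 33.5% for APOM and 50.7% for APOE, so the differences of these last 5 were common among all genes. All 11 liver cell markers were below 0 on the log2 scale in HepG2, at a median of -0.26 (82.4% of all tested genes were below 0), while 6 were above 0 and 5 below in PLC/PRF/5, at a median of 0.10 (70.9% of all tested genes below 0). AHSG, a liver plasma protein, was at 222 FPKM in treated and 112 FPKM in control PLC/PRF/5, and ALB, the gene of albumin, at 1148 FPKM in treated and 624 FPKM in control PLC/PRF/5. The treated and control HepG2 levels were 792 and 840.0 FPKM for AHSG and 2421 and 2586 FPKM for ALB. FGB, which encodes a fibrinogen chain, was lower in treated PLC/PRF/5, at 347 FPKM in treated and 648 FPKM in control cells. The part of liver markers in the members' result was not tested.

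The next comparison was between the untreated lines. On log2(FPKM + 1), 7 of the 10 members were higher by 2-fold or more in HepG2 than in PLC/PRF/5 and 0 were lower, where 10.0% of 13861 tested genes were (23.1% in either direction). The members' median log2 ratio of (FPKM + 1) was 1.18, against -0.06 for all tested genes. APOH had a ratio of 7.85 (7.470 to 8.252), APOC3 one of 7.83 (5.591 to 11.2), APOA1 one of 7.79 (7.442 to 8.152) and APOC2 one of 4.29 (2.32 to 8.44). The ratios of APOA2, APOB and MTTP were 3.40 (3.295 to 3.511), 2.46 (2.453 to 2.477) and 2.13 (1.981 to 2.28). APOC2 passed the filter only through HepG2. At 1.14 (1.04 to 1.24) APOM was nearly level between the lines. APOE (0.774, 0.752 to 0.797) and APOC1 (0.710, 0.650 to 0.774) were lower in HepG2. All 10 members kept their direction under the 5 scalings.

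**Figure D4:**
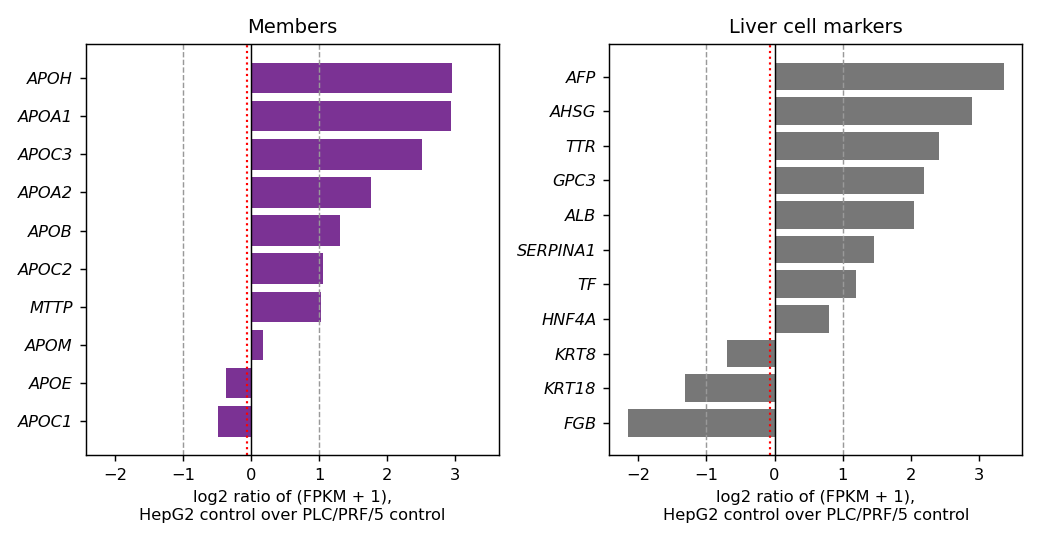
Log2 ratio of (FPKM + 1), HepG2 control over PLC/PRF/5 control, for the 10 members (left) and the 11 liver cell markers (right), with the median of all tested genes as a red dotted line and 2-fold as dashed lines. A total of 7 members lie beyond 2-fold on the HepG2 side, led by APOH and APOA1, and 7 markers do so, led by AFP.

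Liver markers as a group also stood higher in HepG2, with 7 of 11 higher and 2 lower by 2-fold or more and a median of 1.46. AFP, the fetal liver protein, was at 2976 FPKM in HepG2 and 288 FPKM in PLC/PRF/5, while the keratin gene KRT18 was at 101 FPKM in HepG2 and 251 FPKM in PLC/PRF/5, and FGB at 145 FPKM in HepG2 and 648 FPKM in PLC/PRF/5. Of the markers of other cell types, LYZ and VIL1 alone exceeded 10 FPKM. In the fibroblast and stellate list 1 of 6 genes reached 1 FPKM in each library, with a summed level of 1.86 to 6.42 FPKM. Of the 5 endothelial genes none did in HepG2 and PECAM1 alone did in PLC/PRF/5, at a sum of 0.916 to 1.46 FPKM. In the enterocyte list, the cell type that also makes APOB particles, 1 to 3 of 8 genes reached 1 FPKM (summed level 19.1 to 56.5 FPKM), almost all of it VIL1, and in HepG2 CDX2 was listed at 0. The single macrophage and blood gene above 1 FPKM was LYZ, at 462 and 504 FPKM in treated and control HepG2 and 209 and 179 FPKM in treated and control PLC/PRF/5.

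Of the members, 2 lie in the apolipoprotein cluster of chromosome 11 and 3 in that of chromosome 19. On chromosome 11 the log2 ratio of HepG2 control over PLC/PRF/5 control was 2.03 for APOA5, 0.96 for APOA4, 2.51 for APOC3 and 2.94 for APOA1. The flanking genes were at 0.15 (BUD13), -0.40 (ZPR1) and -0.15 (SIK3). On chromosome 19 the values were -0.37 for APOE, -0.48 for APOC1 and 1.06 for APOC2, between -0.89 (NECTIN2) and -0.36 (TOMM40) on one side and -1.03 (CLPTM1) and -2.74 (RELB) on the other. On this scale APOA5, APOC3 and APOA1 were past 2-fold on the HepG2 side and APOA4 and the 3 flanking genes were not, and in the chromosome 19 cluster APOC2 was.

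With PF-429242, the 4 apolipoprotein genes of chromosome 11 were lower in HepG2, at log2 ratios of (FPKM + 1) of -0.42 (APOA5), -0.53 (APOA4), -0.41 (APOC3) and -0.47 (APOA1). The flanking genes were at -0.20 (BUD13), -0.12 (ZPR1) and 0.02 (SIK3), and 82.4% of all tested genes were below 0 in HepG2. APOA4 was at 0.735 FPKM in treated and 1.50 FPKM in control HepG2, so low that the added 1 shrinks its log2 ratio. The PLC/PRF/5 values of these 4 apolipoprotein genes spread from -0.02 for APOC3 and -0.01 for APOA4, both low there, to 0.32 for APOA5 and 0.56 for APOA1. BUD13, ZPR1 and SIK3 were at -0.40, -0.17 and 0.02 in that line, where 70.9% of all tested genes were below 0. APOA5, an activator of lipoprotein lipase, was at 4.69 FPKM in treated and 6.63 FPKM in control HepG2, and at 1.34 FPKM in treated and 0.869 FPKM in control PLC/PRF/5. On the deposited scale its directions in the lines were those of APOA1. Its PLC/PRF/5 values lay near 1 FPKM, however, and no counting interval or other scaling is given for APOA5. Within the libraries there were 31.6 FPKM of APOA1 for each FPKM of APOC3 in treated and 32.4 in control HepG2, against 49.6 in treated and 32.6 in control PLC/PRF/5, the first of these last values resting on 31 fragments of APOC3. APOC1 had log2 ratios with PF-429242 of -0.39 in HepG2 and -0.32 in PLC/PRF/5. The genes beside it differed among themselves: in HepG2 and PLC/PRF/5 the log2 ratios were -0.27 and -0.46 for NECTIN2, -0.11 and -0.15 for TOMM40, -0.14 and 0.02 for APOE, 0.06 and 0.20 for APOC2 and -0.25 and -0.43 for CLPTM1.

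**Figure D5:**
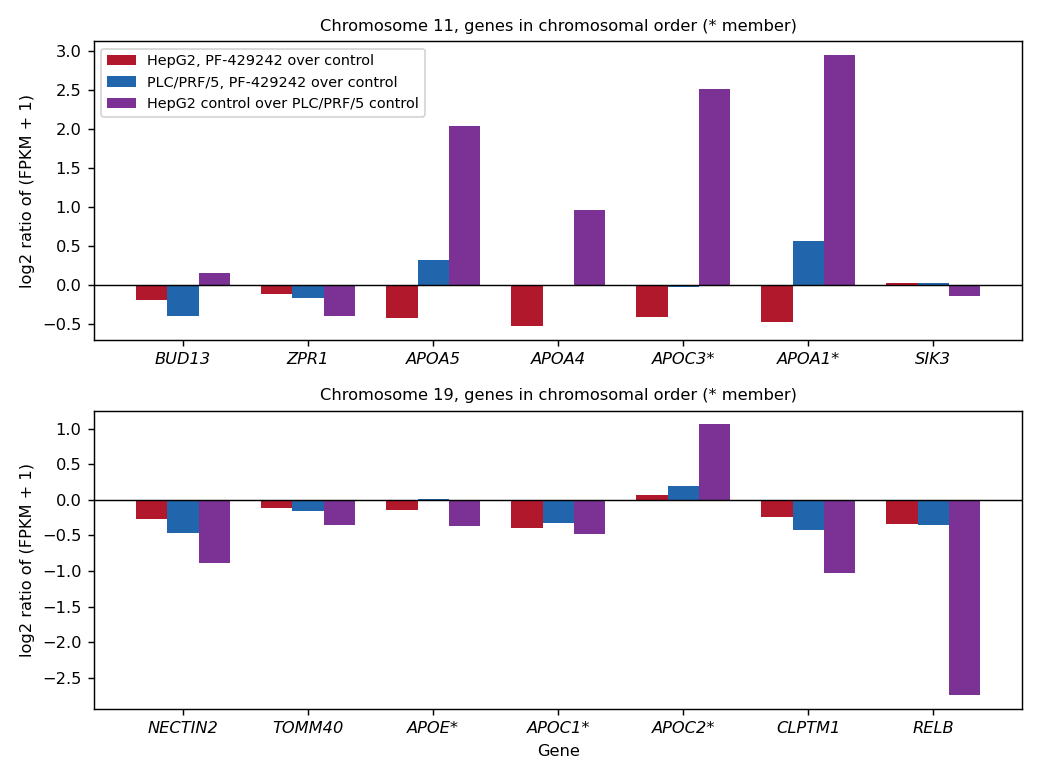
Log2 ratio of (FPKM + 1) of the genes of the chromosome 11 cluster (top) and the chromosome 19 cluster (bottom) in chromosomal order, for PF-429242 over control in HepG2 (red) and PLC/PRF/5 (blue) and for HepG2 control over PLC/PRF/5 control (purple). Purple bars point up for APOA5, APOA4, APOC3 and APOA1, and on chromosome 19 point down for each gene but APOC2.

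None of the other apolipoproteins tested reached 2-fold with PF-429242. Of 15 listed, 9 were tested in HepG2 (median -0.16; 2 above 0, 7 below) and 7 in PLC/PRF/5 (median 0.08; 4 above 0, 3 below). CLU, the gene of the chaperone clusterin, was at 36.2 FPKM in treated and 47.8 FPKM in control HepG2, and at 34.1 FPKM in treated and 46.9 FPKM in control PLC/PRF/5. APOL1, a component of a minor high density lipoprotein fraction, was at 11.1 FPKM in treated and 10.7 FPKM in control HepG2, and at 6.12 FPKM in treated and 3.04 FPKM in control PLC/PRF/5. APOL6 had log2 ratios of 0.56 in HepG2 and 0.16 in PLC/PRF/5, and the mitochondrial protein gene APOO had -0.30 in HepG2 and -0.46 in PLC/PRF/5.

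Genes of particle assembly and export lay below 0 in nearly all cases, as most tested genes did, with none past 2-fold. All 19 tested were below 0 in HepG2 (median -0.28) and 17 of 19 in PLC/PRF/5 (median -0.22). Over all tested genes 82.4% were below 0 in HepG2 (median -0.17) and 70.9% in PLC/PRF/5 (median -0.13). TMEM41B, a scramblase of the endoplasmic reticulum, had log2 ratios of -0.57 in HepG2 and -0.58 in PLC/PRF/5. The coat genes SAR1A and SEC24A had -0.59 and -0.49 in HepG2 and -0.28 and -0.33 in PLC/PRF/5. HSPA5, the main chaperone of the endoplasmic reticulum, was at 222 FPKM in treated and 365 FPKM in control HepG2 and at 229 FPKM in treated and 262 FPKM in control PLC/PRF/5.

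Genes that supply lipid to the particle included some lower by 2-fold or more. Of 14 tested in HepG2, 3 were lower by 2-fold or more (SCD, FASN and PNPLA3), and of 13 tested in PLC/PRF/5, 2 were (SCD and FASN). Over all tested genes, 264 of 12347 in HepG2 and 239 of 13144 in PLC/PRF/5 were lower by 2-fold or more. PNPLA3, a lipid droplet protein, was at 2.05 FPKM in treated and 8.88 FPKM in control HepG2, but at 0.729 and 0.781 FPKM in treated and control PLC/PRF/5. The phosphatidate phosphatase gene LPIN1 had log2 ratios of -0.95 in HepG2 and -0.27 in PLC/PRF/5. In the receptor and efflux list, the cholesterol transporter gene NPC1L1 had log2 ratios of -1.87 in HepG2 and -0.56 in PLC/PRF/5, and the receptor gene LRP8 had -0.82 in HepG2 and -0.22 in PLC/PRF/5.

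Remodelling genes had 1 of 9 tested genes lower by 2-fold or more in HepG2, the lysosomal lipase gene LIPA, at 9.19 FPKM in treated and 21.0 FPKM in control cells, and 0 of 10 in PLC/PRF/5. The antioxidant enzyme genes PON2 and PON3 had log2 ratios of -0.31 and -0.28 in HepG2 and -0.59 and -0.56 in PLC/PRF/5. ANGPTL8, an inhibitor of lipoprotein lipase, was at 1.93 FPKM in treated and 0.978 FPKM in control HepG2, and at 1.11 FPKM in treated and 0.497 FPKM in control PLC/PRF/5. These levels lie near the minimum of 1 FPKM, and no counting interval is given for ANGPTL8. Among the listed transcriptional regulators, 27 of 27 were tested in HepG2, with 2 lower by 2-fold or more (SREBF1 and SREBF2), and 26 in PLC/PRF/5, with 1 (SREBF2). Beside these counts and those of the remodelling genes, 264 of all 12347 tested genes were that much lower in HepG2. In PLC/PRF/5 it was 239 of 13144. HNF4A, a known activator of many of the member genes, was at 39.9 FPKM in treated and 43.2 FPKM in control HepG2, and at 23.7 FPKM in treated and 24.4 FPKM in control PLC/PRF/5. NR0B2, a corepressor that restrains HNF4A and other nuclear receptors, was at 36.8 FPKM in treated and 25.0 FPKM in control HepG2, and at 16.9 FPKM in treated and 8.15 FPKM in control PLC/PRF/5. CEBPB was higher in both treated libraries as well, at log2 ratios of 0.54 in HepG2 and 0.49 in PLC/PRF/5. The shared fit called 0 genes of each of these lists.

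The genes with a profile most like that of APOB over the 4 libraries were PNN, MYD88 and GMPR2, by the Euclidean distance of log2(FPKM + 1) centred over the libraries (0.041, 0.049 and 0.050). Among 4368 other protein-coding genes at 10 FPKM or more in some library, 86 lay within 0.2 of APOB, so with 4 libraries the likeness singles out little. For MTTP the nearest were GMDS (0.195), SMO (0.206) and SERPINA6 (0.22), and 1 gene lay within 0.2. The mean profile of the members had the same 3 nearest genes as APOB, at distances of 0.043 to 0.056.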

How the data were processed

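The deposited values are FPKM for 32479 Ensembl genes in 4 libraries. Per the submitters' processing notes the authors used TopHat2 and the build GRCh38; the counting program, annotation release and strand setting were not given in the sources used here. Symbols and positions are those of GENCODE 29. Fragments were recovered as whole multiples (tolerance 0.001) of what 1 fragment is worth, for 98.7% of genes and all 10 members. Counting intervals (95%) are Clopper-Pearson for ratios of 2 libraries, Poisson for levels and delta-method for ratios of ratios. Log2 ratios used FPKM + 1, and genes at 1 FPKM or more in either library were tested against a 2-fold threshold. The shared effect was fitted with limma 3.58.1 (R 4.3.3, eBayes with trend, Benjamini-Hochberg) for 12838 genes at 1 FPKM or more in at least 2 libraries. The fit was tested on simulated data with changes larger than those of any member, so its power for smaller changes is not known. Without labels on separate cultures, its p measures only the spread between these libraries.

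Members and lists were chosen with earlier results of these data known. Named were all members, up to 4 genes per other list with the largest mean change of the lines, and the 3 nearest profiles of APOB, MTTP and the member mean; genes named outside this rule were chosen after their values were seen. Part of the receptor and efflux list is not reported here. Alternatives were pseudocounts of 0.1 and 5, other filters, 1.5-fold and 4-fold thresholds, TPM, median-of-ratios, quantile and nuclear scaling, and limma without trend, without the line block or as voom. No label gives a batch, and the 2 lines cannot be told apart from any difference in handling.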

Additional observations from a re-analysis of the deposited data

Results flagged for a closer look

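A total of 5 members lay in opposite directions in the 2 lines, PF-429242 over control, on the deposited scale. The share of all genes in opposite directions is not given. Of all tested genes, 82.4% were below 0 in HepG2 and 70.9% in PLC/PRF/5. For APOE and APOM the counting interval of the PLC/PRF/5 ratio held 1 (0.985 to 1.04 and 0.846 to 1.02). The difference between the lines' log2 ratios, HepG2 minus PLC/PRF/5, was -1.04 for APOA1, -0.65 for APOH, -0.26 for APOB, -0.16 for APOE and 0.25 for APOM. With 1 library in each group the differences were not tested against replicates. Under the 5 scalings the difference ranged from -1.19 to -0.89 for APOA1 and from -0.65 to -0.50 for APOH, from -0.72 to -0.11 for APOB, from -0.22 to -0.02 for APOE and from 0.25 to 0.39 for APOM. Of the 5 members, APOA1 alone had opposite signs in the lines under each scaling.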

How the results depend on the processing

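Each group held 1 library, so no replicate numbers could pair samples within a line. The shared fit paired treated and control libraries only by cell line, as its block. Without this block 0 members and 0 genes were called (112 genes at an unadjusted p under 0.05). No member was past 2-fold with PF-429242 in either line under any alternative run. With FPKM as deposited none was past 1.5-fold, but under other scalings some log2 ratios were larger, down to -0.81 (APOA1 in HepG2, TPM) and up to 0.78 (APOA1 in PLC/PRF/5, quantile). The members' median log2 ratio in HepG2 was -0.18, and -0.52 on the TPM scale, -0.0081 with the nuclear FPKM sum, -0.0077 by quantile normalization and 0.030 by median-of-ratios scaling. In PLC/PRF/5 it was 0.02, and -0.27 on the TPM scale and 0.22 after quantile normalization. Between the control lines it was 1.18, and 1.53 with a pseudocount of 0.1 and 1.38 on the TPM scale; 7 members were past 2-fold, 5 with a pseudocount of 5 (without APOC2 and MTTP, at 0.37 and 0.82), 6 of 9 with a filter of 5 FPKM, and 3 past 4-fold. The shared fit called 0 members and 0 genes, and 3 members (APOC1, APOE and MTTP) and 6026 genes on the TPM scale, where the median of all genes was -0.45 in HepG2 and -0.40 in PLC/PRF/5. For the shared log2 change, the TPM scale turned the sign of APOA1 (-0.29), APOA2 (-0.15), APOC2 (-0.051), APOH (-0.19) and APOM (-0.30). It turned for APOB and APOE under median-of-ratios scaling (0.11 and 0.105) and quantile normalization (0.135 and 0.11), and for APOA1 with voom (-0.009). Higher genes were 32.0% of those past 2-fold in HepG2 and 44.8% in PLC/PRF/5, and 17.8% and 19.2% on the TPM scale, 44.6% and 47.8% with the nuclear FPKM sum, 47.4% and 53.6% by quantile normalization and 45.9% and 54.0% by median-of-ratios scaling; between the control lines they were 43.4%, and 54.4% on the TPM scale. Depth limits APOC2 and, in PLC/PRF/5, APOC3.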
